A study of Homo sapiens with 3 samples.

Results

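The death receptor and caspase genes described here are 8 genes: the ligand TNFSF10, the receptors FAS, TNFRSF10A and TNFRSF10B, the initiator caspases CASP8 and CASP10, and the inflammatory caspases CASP1 and CASP4. They were taken by symbol from an exon array table of 18708 transcript clusters, in which 10 clusters carried the symbol of at least 1 of them. The table held 14410 genes with a cluster of their own symbol. Of the 8 genes, 6 had such a cluster, whereas CASP1 and CASP4 were annotated only on clusters shared with a relative. The 2 clusters of CASP1 were shared with CARD16 and with CARD17P, and the cluster of CASP4 with CASP4LP, so signal from these relatives cannot be told apart from that of the caspases.

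The arrays held total RNA of 3 human cell lines, each measured once. The colon adenocarcinoma line HT-29 was grown in McCoy's 5A medium with 10% serum and received interferon gamma (IFN-γ), a cytokine of T cells and natural killer cells, at 200 U/ml for 24 h. The breast adenocarcinoma line MDA-MB-436 was grown in L-15 medium with 10% serum, without CO2, and the mammary epithelial line MCF10A in DMEM/F12 with 5% horse serum plus EGF (20 ng/ml), hydrocortisone (500 ng/ml), cholera toxin (100 ng/ml) and insulin (10 µg/ml). IFN-γ is named for HT-29 alone and untreated HT-29 cells were not analysed here, so line, medium and cytokine cannot be told apart in any difference from HT-29. A single array of each line leaves the spread between cultures unknown, and the members' values carry no p-value, SD or standard error. Each intensity averages a whole culture, so fewer expressing cells and less RNA per cell cannot be told apart.

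Death receptors are members of the tumor necrosis factor (TNF) receptor superfamily with a cytoplasmic death domain. In FAS and the receptors encoded by TNFRSF10A and TNFRSF10B, this domain recruits the adaptor FADD once ligand is bound. FADD gathers the precursors of caspase-8 and caspase-10, which activate each other there, start the caspase cascade and, through BID, engage the mitochondrial route, while the caspase-like protein encoded by CFLAR restrains this step. Caspase-1 and caspase-4 belong to another branch: caspase-1 is activated in inflammasomes and matures interleukin-1β and interleukin-18, caspase-4 responds to cytosolic lipopolysaccharide, and both cleave gasdermin D to cause lytic death. In epithelia these routes serve the removal of infected, damaged or transformed cells, and several of their genes are known targets of interferons.

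Promoter sequence is shown for 3 members because the genes that respond to interferons commonly carry an interferon response element near their start. RefSeq windows (build GRCh38.p14) from 250 bases before to 50 bases after a start were held for 4 of the 8 genes: TNFSF10, FAS, CASP4 and CASP8. They were searched on both strands for the core of the interferon-stimulated response element, which is GAAA, any 2 bases and GAAA, and for the gamma-activated sequence, TTCNNNGAA, which reads the same on both strands. Of 35116 windows of this length over all genes, 3.57% held the first and 7.66% the second. The windows lie at chr3:172523381-172523680 on the minus strand for TNFSF10, at chr2:201233213-201233512 on the plus strand for the most upstream of 3 listed starts of CASP8, and at chr11:104968525-104968824 on the minus strand for CASP4. They are written 5′ to 3′ along the gene, with matches in capitals.
TNFSF10: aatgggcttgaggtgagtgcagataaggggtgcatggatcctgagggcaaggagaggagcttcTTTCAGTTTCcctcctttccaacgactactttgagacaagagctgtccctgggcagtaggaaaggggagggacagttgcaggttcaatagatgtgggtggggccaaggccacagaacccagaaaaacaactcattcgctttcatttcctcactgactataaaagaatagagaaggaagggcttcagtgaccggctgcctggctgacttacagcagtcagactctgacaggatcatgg
CASP8: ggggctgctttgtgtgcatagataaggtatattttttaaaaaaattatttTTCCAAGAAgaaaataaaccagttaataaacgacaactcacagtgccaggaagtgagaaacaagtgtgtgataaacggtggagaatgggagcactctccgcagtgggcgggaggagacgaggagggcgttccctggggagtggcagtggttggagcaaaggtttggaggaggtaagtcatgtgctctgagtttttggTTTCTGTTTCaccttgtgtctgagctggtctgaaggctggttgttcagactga
CASP4: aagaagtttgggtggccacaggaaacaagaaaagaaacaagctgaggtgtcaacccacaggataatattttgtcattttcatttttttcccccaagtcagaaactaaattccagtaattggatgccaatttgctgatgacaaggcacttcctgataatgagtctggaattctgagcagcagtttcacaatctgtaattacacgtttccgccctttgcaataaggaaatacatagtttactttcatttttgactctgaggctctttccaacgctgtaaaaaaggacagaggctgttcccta
In TNFSF10 the capitals mark TTTCAGTTTC, a match to the response element core on the opposite strand that begins 187 bases before the start. In CASP8 they mark TTCCAAGAA, a gamma-activated sequence that begins 200 bases before the start, and TTTCTGTTTC, a response element core that begins 3 bases before it. These letters did not occur in the CASP4 window, in the 3 windows of FAS or in the other 2 of CASP8. A match is a description of the sequence and binding was not measured.

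Signal levels and identity of the lines were checked against marker genes. The median intensity over all clusters was between 75.1 and 81.0 in the 3 arrays. The upper ends differed more, with a 95th percentile of 1214 in HT-29, 966 in MDA-MB-436 and 1197 in MCF10A. Background was set at an intensity of 29.9, the 95th percentile of 228 olfactory receptor genes, which act in sensory neurons of the nose, and their highest value was 101. Of 6 colon epithelium markers, 5 were above background in HT-29, with CDH17 under it at 21.3, and 2 in each mammary line. Of 3 measured basal mammary markers, 2 were above background in HT-29, 0 in MDA-MB-436 and 3 in MCF10A. The 4 mesenchymal markers were under it in HT-29 and above it in both mammary lines. Of 5 measured leukocyte markers, PTPRC and CD3E were under background in all lines, at 3.05 to 4.16 and 7.18 to 8.51. CD68 was at 314 in HT-29, 1203 in MDA-MB-436 and 294 in MCF10A, and CD14 at 38.9, 86.5 and 156 in the same order of lines, above background in each. The summed intensity of these 5 was 4684 in HT-29, 1308 in MDA-MB-436 and 465 in MCF10A, and that of HT-29 came mostly from LYZ at 4320, a gene that epithelia also express. IRF1 and IRF9, transcription factors of the interferon response, were at 3961 and 1345 in HT-29, 326 and 916 in MDA-MB-436, and 94.9 and 80.5 in MCF10A. Their part in the results below was not tested.

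Across the 8 genes, HT-29 with IFN-γ had the highest intensity for 5 (TNFSF10, CASP8, CASP10, CASP1 and CASP4) and MCF10A for the 3 receptors (FAS on its own cluster only), while MDA-MB-436 was highest for none. MDA-MB-436 was lowest for 5, MCF10A for CASP8 and CASP10, and HT-29 for TNFRSF10A. Of these 5, FAS was lowest in MDA-MB-436 on its own cluster only, and TNFRSF10B changed order with HT-29 after quantile normalization. For comparison, of the 10707 genes above background in some line, 37.8% were highest in HT-29, 28.8% in MDA-MB-436 and 33.4% in MCF10A. Shares of all genes lowest in each line were not counted. All 8 were above background in HT-29, all but TNFSF10 in MDA-MB-436 and all but CASP10 in MCF10A. Of all 14410 genes, 9594 were above background in HT-29, 9907 in MDA-MB-436 and 9362 in MCF10A.

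**Figure D1:**
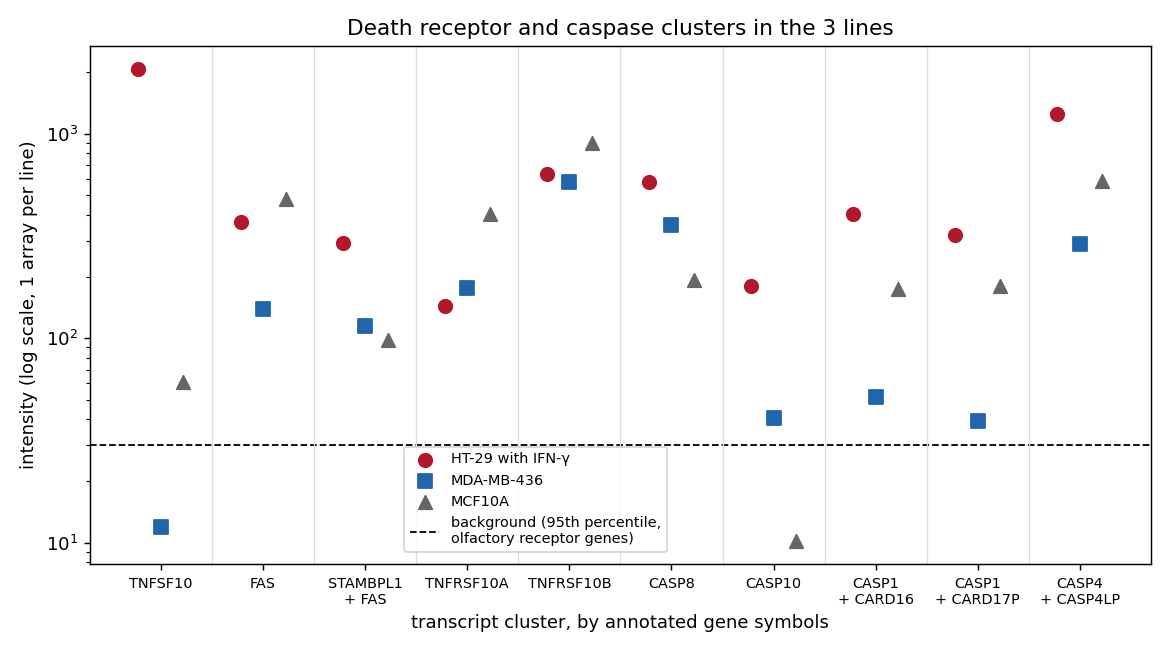
Intensity (log scale) of the 10 transcript clusters annotated to the 8 genes, 1 array per line, with circles for HT-29 with IFN-γ, squares for MDA-MB-436, triangles for MCF10A and a dashed line at the background of 29.9. TNFSF10 spans 2059 in HT-29 to 12.0 in MDA-MB-436, whereas TNFRSF10B stays between 581 and 896. Heights can be compared between lines for a cluster, not between clusters.

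TNFSF10 encodes TRAIL, the ligand of the receptors encoded by TNFRSF10A and TNFRSF10B, and it had the widest range of the 8 genes. Its intensity was 2059 in HT-29 with IFN-γ, 12.0 in MDA-MB-436 and 60.9 in MCF10A. The HT-29 value stood far above both others, MDA-MB-436 lay under background, and MCF10A lay above background but under the highest olfactory receptor value. HT-29 was at least 68.8-fold higher than MDA-MB-436, measured against background, a log2 difference of 6.11 with MDA-MB-436 set to background. From MCF10A it was 5.08, a 33.8-fold difference that ranked 97 among the genes higher in HT-29. Between MDA-MB-436 and MCF10A the log2 difference was -2.35, but against background MDA-MB-436 was only at least 2.04-fold lower. In the plot of intensities TNFSF10 is the cluster with the largest gap between lines.

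Other ligands of death receptors were dim or followed a like order. FASLG, the ligand of FAS, was at 22.1 in HT-29, 15.4 in MDA-MB-436 and 14.3 in MCF10A, under background in each. TNF and LTA were also under background in all 3 lines, with highest values of 19.7 and 20.9, both in HT-29. TNFSF15, which encodes the ligand TL1A of the death receptor TNFRSF25, was at 901 in HT-29, 16.7 in MDA-MB-436 and 57.7 in MCF10A. It was thus at least 30.1-fold higher in HT-29 than in MDA-MB-436 and 15.6-fold higher than in MCF10A. Of the 5 death ligands, 2 were therefore above background in any line, and HT-29 had the highest value for both. Of all 14410 genes, 10707 were above background in some line, and 37.8% of these were highest in HT-29.

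FAS encodes the receptor of FAS ligand. Its own cluster was at 368 in HT-29, 139 in MDA-MB-436 and 480 in MCF10A, so MDA-MB-436 was the low line. MDA-MB-436 was 3.46-fold lower than MCF10A (log2 difference -1.79), and 2.79% of genes were as far on the lower side. HT-29 was 2.65-fold higher than MDA-MB-436 and 1.31-fold lower than MCF10A. A second cluster, annotated to FAS and its neighbour STAMBPL1, was at 293 in HT-29, 114 in MDA-MB-436 and 98.1 in MCF10A. On that cluster HT-29 was 2.99-fold higher than MCF10A (log2 difference 1.58), the opposite direction, and MDA-MB-436 differed from MCF10A by a log2 value of 0.22. Both clusters had HT-29 above MDA-MB-436, by log2 differences of 1.41 and 1.36, and the place of MCF10A depended on the cluster read. STAMBPL1 signal in the second cluster was not measured separately.

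TNFRSF10A and TNFRSF10B encode the TRAIL receptors that carry a death domain, and both were highest in MCF10A. TNFRSF10A was at 144 in HT-29, 175 in MDA-MB-436 and 406 in MCF10A. The 2 cancer lines lay near each other, with log2 differences from MCF10A of -1.50 in HT-29 and -1.21 in MDA-MB-436, or 2.82-fold and 2.32-fold lower. TNFRSF10B was at 635 in HT-29, 581 in MDA-MB-436 and 896 in MCF10A, the narrowest range of the 8 genes. HT-29 was 1.41-fold and MDA-MB-436 1.54-fold lower than MCF10A, and differences at least as far on the lower side were measured for 21.8% and 18.8% of all genes. Between HT-29 and MDA-MB-436 the log2 difference of TNFRSF10B was 0.13, and it was -0.13 after quantile normalization, so these arrays give no order for it. None of the 3 member receptors reached 4-fold in any comparison. Few genes did: 7.83% of all genes for HT-29 minus MCF10A, 8.88% for HT-29 minus MDA-MB-436 and 5.66% for MDA-MB-436 minus MCF10A. For 3 genes, 0 is thus near the share over all genes.

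The decoy receptors bind TRAIL without passing a death signal. TNFRSF10D was at 83.0 in HT-29, 37.2 in MDA-MB-436 and 589 in MCF10A, which placed MCF10A 7.09-fold above HT-29 and 15.8-fold above MDA-MB-436 by measured intensity. Both cancer lines were under the highest olfactory receptor value for this gene. TNFRSF10C was under background in all lines, at 17.5 in HT-29, 27.6 in MDA-MB-436 and 19.1 in MCF10A, and TNFRSF11B, a secreted receptor that also binds TRAIL, was above it in MDA-MB-436 alone, at 51.5. TNFRSF10B, TNFRSF10C, TNFRSF10D and TNFRSF10A follow each other in this order on chromosome 8, and the log2 differences of HT-29 from MCF10A along it were -0.50, -0.13, -2.83 and -1.50, with the second between values under background. Signal can be shared between these related genes.

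Among measured death receptors outside the member set, EDAR was under background in all lines. NGFR was near it, at 38.2 in HT-29, 42.4 in MDA-MB-436 and 30.9 in MCF10A. The brighter TNFRSF21 and TNFRSF1A went another way than the TRAIL receptors. TNFRSF21, an orphan receptor with a death domain, was at 1437 in HT-29, 583 in MDA-MB-436 and 295 in MCF10A, and was 4.87-fold higher in HT-29 than in MCF10A. TNFRSF1A, the main TNF receptor of epithelial cells, was at 640 in HT-29, 595 in MDA-MB-436 and 304 in MCF10A. For both of these genes MCF10A was the low line, whereas it was the high line for TNFRSF10A and TNFRSF10B. For FAS it was the high line on the gene's own cluster and the low line on the shared one.

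CASP8 and CASP10 encode the initiator caspases of the receptor complex, and both had the order HT-29, MDA-MB-436, MCF10A from high to low. CASP8 was at 582 in HT-29, 358 in MDA-MB-436 and 192 in MCF10A, all well above background. HT-29 was 1.63-fold higher than MDA-MB-436 and 3.04-fold higher than MCF10A, and MDA-MB-436 was 1.87-fold higher than MCF10A. CASP10 was at 180 in HT-29, 40.6 in MDA-MB-436 and 10.2 in MCF10A, so that MCF10A lay under background and MDA-MB-436 just above it. HT-29 was 4.44-fold higher than MDA-MB-436 and at least 6.03-fold higher than MCF10A. MDA-MB-436 was at least 1.36-fold higher than MCF10A, while the measured log2 difference of 1.99 fell just short of 4-fold. The other initiators varied little, with CASP2 between 627 and 797 and CASP9, the initiator of the mitochondrial route, between 154 and 185.

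CFLAR, CASP10 and CASP8 are neighbouring protein-coding genes on chromosome 2, in that order. CFLAR was at 318 in HT-29, 119 in MDA-MB-436 and 139 in MCF10A, 2.69-fold and 2.29-fold higher in HT-29. All 3 genes of this group were thus highest in HT-29, by log2 differences from MCF10A of 1.19, 2.59 and 1.60 in that order and from MDA-MB-436 of 1.43, 2.15 and 0.70, with the MCF10A value of CASP10 set to background. MDA-MB-436 minus MCF10A was -0.23, 0.44 and 0.90 on the same footing. The mammary lines lay nearer to each other than to HT-29 for CFLAR and, with the value set to background, for CASP10. As measured, MDA-MB-436 differed from MCF10A by 1.99 and from HT-29 by 2.15 for CASP10. For CASP8, MDA-MB-436 lay nearer to HT-29 than to MCF10A.

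**Figure D2:**
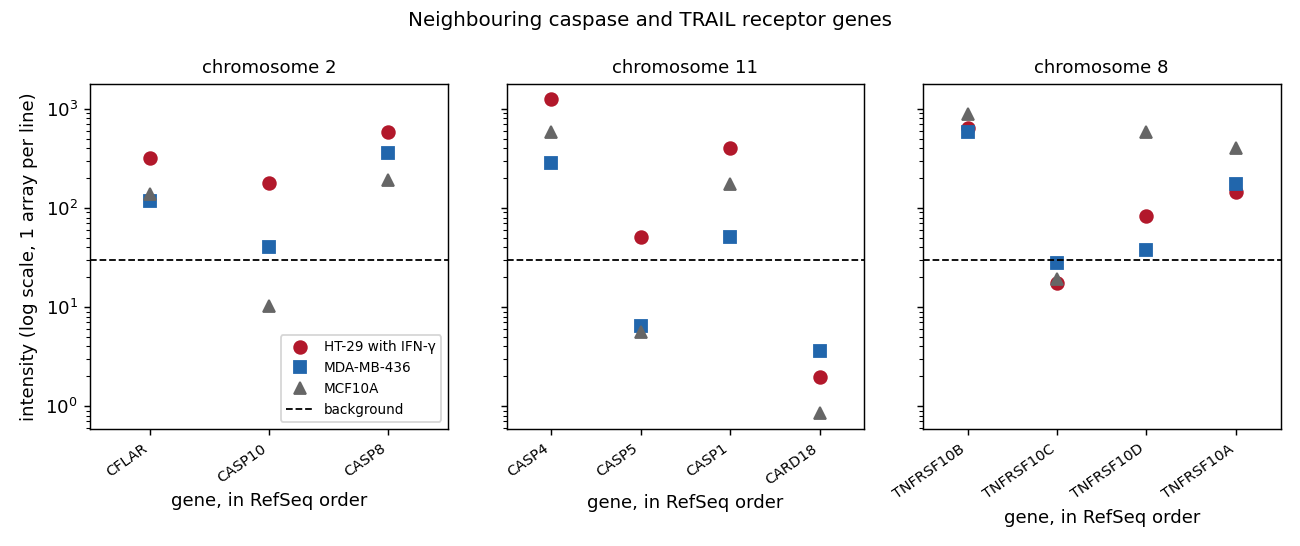
Intensity (log scale, 1 array per line) of neighbouring genes in RefSeq order on chromosomes 2, 11 and 8, with circles for HT-29 with IFN-γ, squares for MDA-MB-436, triangles for MCF10A and a dashed line at background; CASP1 and CASP4 are read from shared clusters. HT-29 is highest for CFLAR, CASP10, CASP8, CASP4, CASP5 and CASP1, and MCF10A for TNFRSF10B, TNFRSF10D and TNFRSF10A.

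CASP1 and CASP4 encode the inflammatory caspases, and both had the order HT-29, MCF10A, MDA-MB-436 from high to low. The CASP1 cluster shared with CARD16 was at 403 in HT-29, 51.3 in MDA-MB-436 and 174 in MCF10A. HT-29 was 7.86-fold higher than MDA-MB-436 and 2.32-fold higher than MCF10A, and MDA-MB-436 was 3.38-fold lower than MCF10A. The CASP1 cluster shared with CARD17P gave 318 in HT-29, 39.4 in MDA-MB-436 and 179 in MCF10A, the same order, with log2 differences of 3.01, 0.83 and -2.18 for these 3 comparisons in turn. On this cluster the difference of MDA-MB-436 from MCF10A was past 4-fold, which it was not on the first. The MDA-MB-436 values of both CASP1 clusters lay under the highest olfactory receptor value.

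The CASP4 cluster was at 1248 in HT-29, 287 in MDA-MB-436 and 584 in MCF10A. HT-29 was 4.35-fold higher than MDA-MB-436 and 2.14-fold higher than MCF10A, and MDA-MB-436 was 2.03-fold lower than MCF10A. After quantile normalization the log2 difference of HT-29 from MDA-MB-436 was 1.89, which no longer reached 4-fold. CASP5, a further inflammatory caspase gene between CASP4 and CASP1 on chromosome 11, was at 51.2 in HT-29 and under background in MDA-MB-436 and MCF10A, at 6.48 and 5.65. It was at least 1.71-fold higher in HT-29 than in either. CARD18, next to this group, was under background in all 3 lines.

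Past 4-fold, with the higher intensity above background, HT-29 with IFN-γ was higher than MCF10A for 2 of the 8 members (TNFSF10 and CASP10) and lower for 0. Of all genes, 4.33% were higher and 3.5% lower by this rule, 7.83% in either direction, and of all clusters 4.02% were higher and 3.29% lower. The median log2 difference of the members was 1.16, against 0.11 over all genes. At 2-fold, 5 of the 8 were higher and 1 lower, TNFRSF10A, where 10.2% and 10.1% of all genes were. The members higher in HT-29 were the ligand and the 4 caspases, and the 3 with negative differences were the receptors. For FAS this held on its own cluster only, as its second cluster gave 1.58. The differences of FAS (-0.39) and TNFRSF10B (-0.50) were smaller than the SD of 0.76 among olfactory receptor genes. Those genes had a median intensity of 5.92, far under both members. Their SD thus does not give the spread at the level of FAS or TNFRSF10B.

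Against MDA-MB-436, HT-29 with IFN-γ was past 4-fold higher for 4 of the 8 members (TNFSF10, CASP1, CASP4 and CASP10) and lower for 0, where 4.21% of all genes were higher and 4.68% lower, 8.88% in either direction, and 3.88% and 4.37% of all clusters. The CASP4 call was lost after quantile normalization, at a log2 difference of 1.89, and the CASP10 call with a pseudocount of 16, at 1.79. The median log2 difference was 1.76 for the members and 0.075 over all genes. At 2-fold FAS joined them, making 5 higher and 0 lower, where 11.5% and 11% of all genes were. This comparison and that with MCF10A share the HT-29 array, so they are not separate evidence.

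MDA-MB-436 was past 4-fold lower than MCF10A for 1 of the 8 members, TNFSF10, and higher for 0, where 2.01% of all genes were lower and 3.64% higher, 5.66% in either direction, and 1.99% and 3.39% of all clusters. That call rests on a value under background and was lost when such values were set to background. The median log2 difference was -1.12 for the members and 0.018 over all genes. At 2-fold 5 were lower (TNFSF10, FAS, CASP1, TNFRSF10A and CASP4) and 1 higher (CASP10), where 8.73% and 8.75% of all genes were. The CASP10 call rests on an MCF10A value under background, against which MDA-MB-436 was only at least 1.36-fold higher. The CASP4 difference no longer reached 2-fold after quantile normalization, at a log2 difference of -0.83. For IRF1 and IRF9, MDA-MB-436 exceeded MCF10A 3.44-fold and 11.4-fold. Of the 8 members, CASP8 and CASP10 were also higher in MDA-MB-436 and the other 6 were lower, FAS on its own cluster only.

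**Figure D3:**
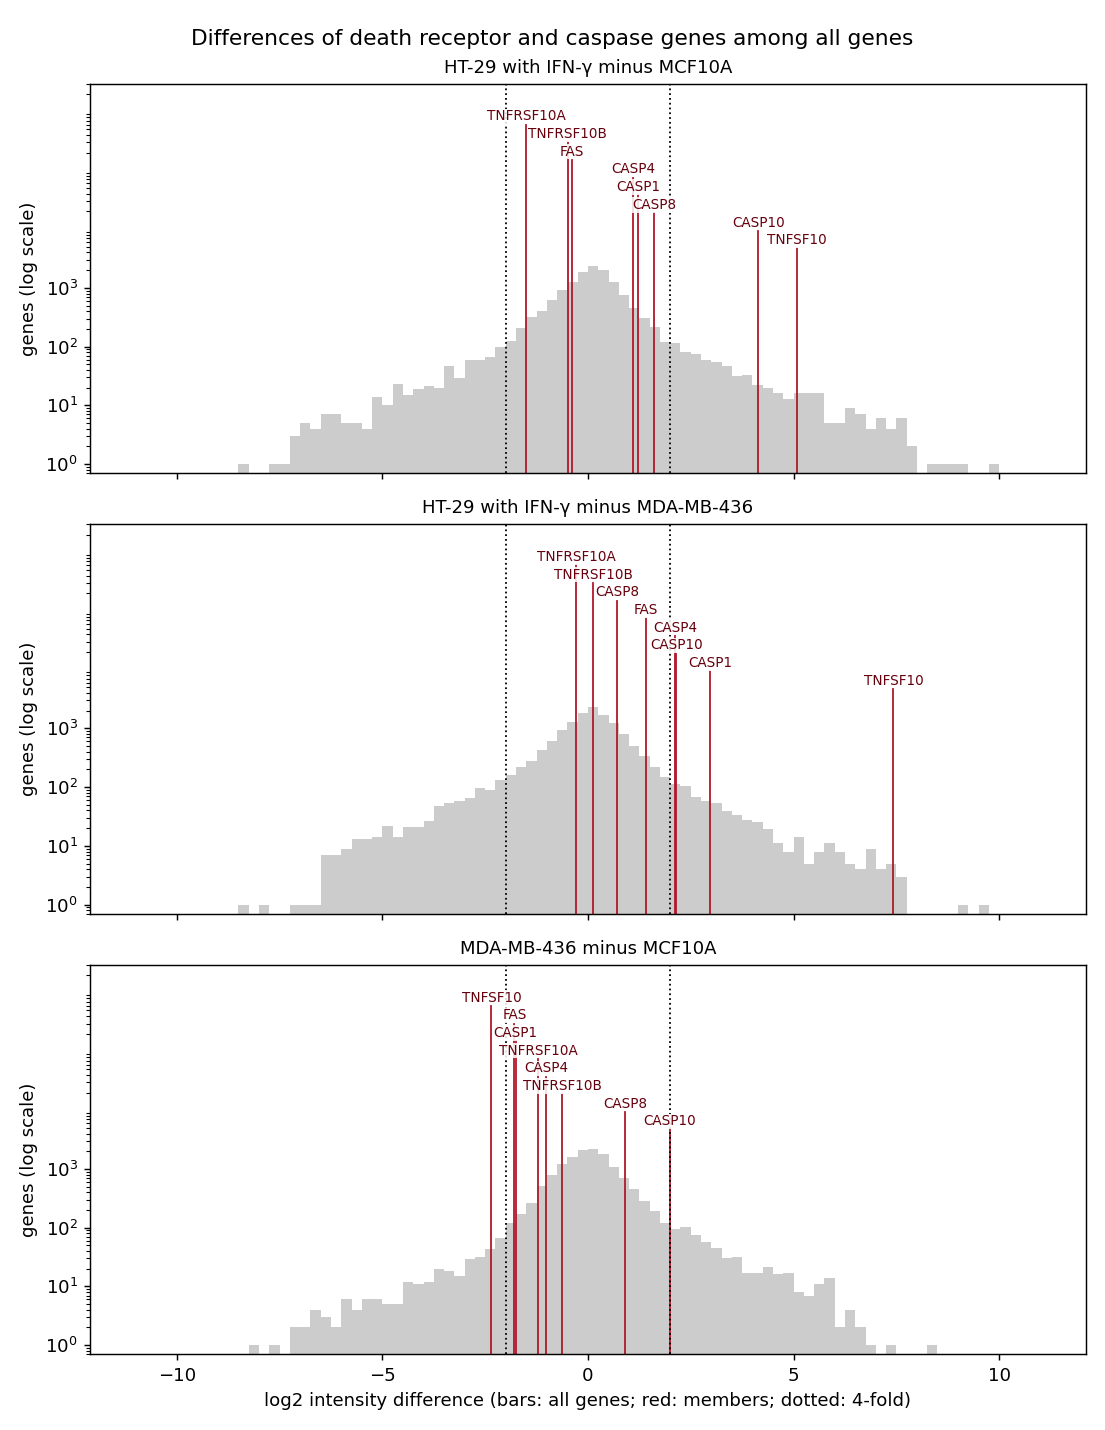
Histograms of the log2 intensity difference over 14410 genes in each comparison (gene counts on a log scale), with red lines at the 8 members and dotted lines at 4-fold. TNFSF10 and CASP10 lie past 4-fold in HT-29 minus MCF10A, these and CASP1 and CASP4 in HT-29 minus MDA-MB-436, and TNFSF10 on the lower side in MDA-MB-436 minus MCF10A.

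Beyond the members, 45 of 55 listed genes of the death receptor, caspase, inflammasome, inhibitor, mitochondrial and necroptosis routes had a cluster of their own; RIPK1 and BIRC3 were among those not analysed here. HT-29 was past 4-fold higher than MCF10A for 6 of the 45 and lower for 3, where 4.33% and 3.5% of all genes were. It was past 4-fold higher than MDA-MB-436 for 6 and lower for 1, where 4.21% and 4.68% of all genes were. With values under background set to it, these counts were 3 and 2 against MCF10A, where 493 and 397 of all 14410 genes were called, and 3 and 1 against MDA-MB-436, where 518 and 454 were. MDA-MB-436 was past 4-fold higher than MCF10A for 2 and lower for 3, where 3.64% and 2.01% of all genes were, or for 1 and 3 with values under background set to it, where 307 and 245 of all genes were. The median log2 differences over the 45 genes were 0.32, 0.22 and 0.17, against 0.11, 0.075 and 0.018 over all genes.

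FADD, the adaptor of FAS and the TRAIL receptors, was at 454 in HT-29, 242 in MDA-MB-436 and 458 in MCF10A. MDA-MB-436 was thus the low line, 1.89-fold below MCF10A. TRADD, the adaptor of the TNF receptor, was at 117 in HT-29, 73.1 in MDA-MB-436 and 191 in MCF10A. CASP6, an effector caspase, was at 92.5 in HT-29, 136 in MDA-MB-436 and 170 in MCF10A. None of the 4 measured adaptor and receptor complex genes, of the 6 IAP genes and antagonists or of the 5 mitochondrial genes was past 4-fold in any comparison. Past 4-fold in either direction were 7.83%, 8.88% and 5.66% of all genes in the 3 comparisons, so 0 among 15 genes is near the share over all genes. The nearest was XIAP, which encodes a direct inhibitor of caspases, 3.82-fold higher in HT-29 than in MCF10A at 237 against 62.2. BAK1, a pore-forming protein of the mitochondrial route, was 3.57-fold higher in HT-29 than in MDA-MB-436.

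Among the inflammasome genes, the adaptor was above background in HT-29 alone. PYCARD, which encodes the adaptor ASC that brings caspase-1 to its sensors, was at 254 in HT-29, 16.1 in MDA-MB-436 and 14.4 in MCF10A, and was at least 8.48-fold higher in HT-29 than in either. Of the sensor and regulator genes, NLRP3, NLRC4, AIM2 and MEFV were under background in all 3 lines. NAIP was just above it in HT-29, at 30.6, and under it in MDA-MB-436 and MCF10A, at 29.3 and 26.7. CARD8 was at 82.6 in HT-29, 41.8 in MDA-MB-436 and 44.1 in MCF10A. GSDMD, the substrate gasdermin D, was at 72.7 in HT-29, 78.1 in MDA-MB-436 and 31.6 in MCF10A, values between background and the highest olfactory receptor value. The cytokine substrates of caspase-1 did not follow the order of the CASP1 clusters. IL1B was under background in HT-29, at 14.4, and was at 1277 in MDA-MB-436 and 113 in MCF10A. IL18 was at 99.4 in HT-29, 105 in MDA-MB-436 and 1243 in MCF10A, 12.5-fold lower in HT-29 than in MCF10A and 11.8-fold lower in MDA-MB-436. HT-29 and MDA-MB-436 were within 1.06-fold of each other for IL18.

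Necroptosis, the lytic death that follows when caspase-8 is inactive, runs through RIPK3 and MLKL, and ZBP1 is a nucleic acid sensor that can start it. RIPK3 was at 59.9 in HT-29 and under background in MDA-MB-436 and MCF10A, at 6.94 and 7.04, at least 2-fold higher in HT-29. ZBP1 was at 70.6 in HT-29 against 14.7 and 14.8, at least 2.36-fold higher. Both HT-29 values were under the highest olfactory receptor value. MLKL was at 368 in HT-29, 82.3 in MDA-MB-436 and 379 in MCF10A, 4.47-fold higher in HT-29 than in MDA-MB-436 and 4.61-fold lower in MDA-MB-436 than in MCF10A. MDA-MB-436 was thus the low line for MLKL, as it was for FADD, TNFSF10, CASP1, CASP4 and, on its own cluster only, FAS.

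**Figure D4:**
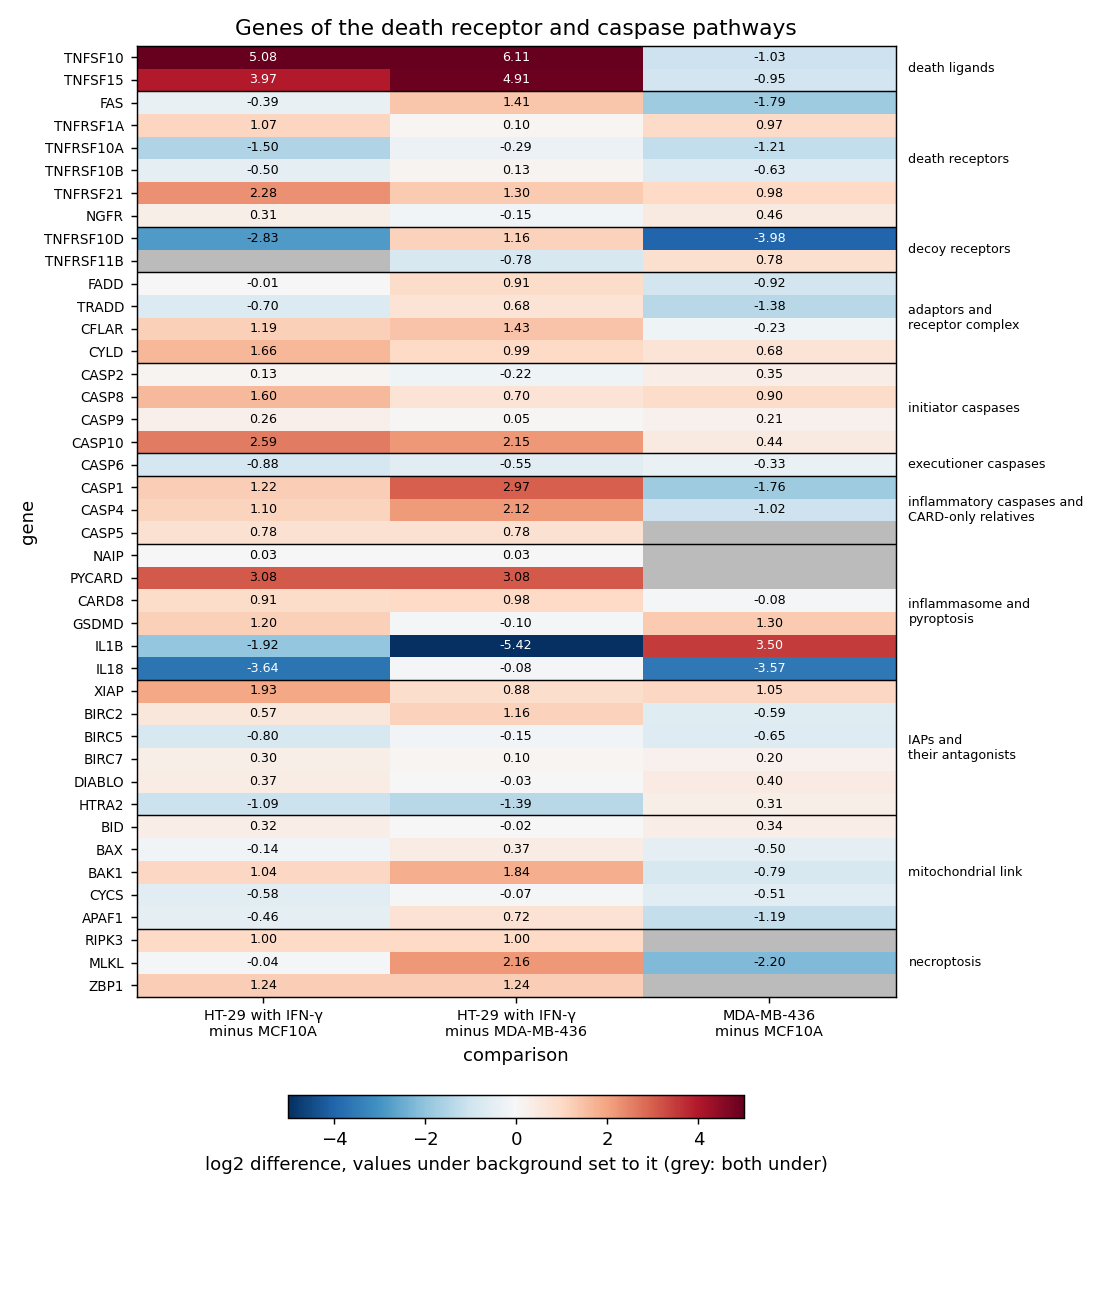
Log2 intensity difference in the 3 comparisons for the genes of these lists that were above background in at least 1 line, with values under background set to it and grey where both arrays were under it; list names stand at the right. TNFSF10, TNFSF15 and PYCARD are higher in HT-29 with IFN-γ against both mammary lines, and IL18 and TNFRSF10D are lower in HT-29 and in MDA-MB-436 against MCF10A.

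The genes nearest to each member over the 3 log2 intensities, by Euclidean distance, are alike in level as well as in differences between lines. Counts of near genes therefore do not give how common a pattern of differences was. Intensities under background enter as measured, which touches TNFSF10 in MDA-MB-436 and CASP10 in MCF10A. For TNFSF10 no gene lay within a distance of 1, and the nearest was LIPH at 1.05, with 1594 in HT-29, 18.9 in MDA-MB-436 and 36.7 in MCF10A. CASP10 had 18 genes within that distance, the nearest being IQGAP2 at 0.35 and SOCS1 at 0.38, and CASP1 had 57, the nearest being FOS at 0.21 and CXCL16 at 0.27. For CASP4 the nearest was LIMA1 at 0.11, with BAK1 the third at 0.31, and 172 genes lay within 1. CASP8, FAS, TNFRSF10A and TNFRSF10B had 356, 330, 560 and 907 genes within that distance. Their nearest genes were PARP8 for CASP8, ACER3 for FAS, GTF2E2 for TNFRSF10A and NUDT5 for TNFRSF10B. With 3 arrays such a likeness is a description of these lines only.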

How the data were processed

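Total RNA was isolated with a column kit, per the labels' protocols, and measured on exon arrays. The authors deposited a linear intensity for each transcript cluster of each array. How probes were summarised and arrays scaled is not given in the sources used here. A genome build, hg19, is named in the submitters' processing notes. Of 18708 clusters, 14733 had a single symbol in the platform annotation, 14705 of them matched by gene identifier to RefSeq (GRCh38.p14, used for names and gene order), 2875 had several and 1100 were unnamed here. For each gene the cluster with the highest mean log2 intensity was used, from shared clusters for CASP1 and CASP4. Each line's label gave its group.

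Differences are log2 intensities of the 2 arrays subtracted, as deposited. A gene counted at 4-fold if its higher intensity exceeded background; a fold against a value under background was computed against 29.9 and is a lower bound. No test was possible with 1 array per line, so precision is limited by the number of arrays. Olfactory receptor genes differed between arrays with an SD of 0.76 to 0.80 log2 units, the yardstick for alternatives. With a median intensity of 5.92 they are dim, so this SD does not give the spread of bright genes. The counting step was tested on simulated data with large changes planted in bright genes only. That test does not cover differences near 4-fold or values under background. The members, lists and naming rule (all members, list genes past 4-fold or tied to a member's role, 3 nearest genes) were chosen with earlier results of these data known. Alternatives were quantile normalization, median centring, other filters, a floor, a pseudocount of 16, folds of 2 and 8, and the median over clusters; other clusters for FAS and CASP1 were added after the data were seen. Scripts ran on pandas 2.3.3 and numpy 2.4.6 under Python 3.11.15, with figures from matplotlib 3.10.9.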

Additional observations from a re-analysis of the deposited data

How the results depend on the processing

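No paired analysis was possible because each line had 1 array. All 8 members kept the direction of their log2 differences under the normalizations, floor, pseudocount and median over clusters tried, except TNFRSF10B between HT-29 and MDA-MB-436, which was -0.13 after quantile normalization. Reading FAS from its second cluster turned 2 of its differences, to 1.58 (HT-29 minus MCF10A) and 0.22 (MDA-MB-436 minus MCF10A), and the mean of both clusters gave 0.60 and -0.79. Scaling shifted the median of all genes by over 0.1: HT-29 minus MCF10A was 0.11 as deposited and -0.011 after quantile normalization, and MDA-MB-436 minus MCF10A was 0.018 and, after median centring, -0.091. Members past the fold, in either direction, numbered 6 at 2-fold for HT-29 minus MCF10A, 1 at 8-fold for HT-29 minus MDA-MB-436, and 6 at 2-fold and 0 at 8-fold for MDA-MB-436 minus MCF10A. The single call of MDA-MB-436 minus MCF10A became 0 with a pseudocount of 16, 0 with values under background set to it, and 2 with the other clusters of FAS and CASP1. Quantile normalization left 3 members for HT-29 minus MDA-MB-436, without CASP4, and the pseudocount 3, without CASP10. Over all genes, 2-fold gave 2919, 3237 and 2519 in the order HT-29 minus MCF10A, HT-29 minus MDA-MB-436 and MDA-MB-436 minus MCF10A, 8-fold gave 569, 621 and 371, and the pseudocount gave 514 in the last. Intensities near background limit CASP10 outside HT-29 and TNFSF10 in MDA-MB-436.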
